A study of Mus musculus with 28 samples.

Results

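Livers of mice fed a high-fat diet were compared directly with livers of control mice on 10 of the 28 arrays of the series, which hybridised 5 control mice against 5 high-fat mice, each pair on 2 arrays with the dyes exchanged. The arrays were chosen by their titles, which pair a control liver with a high-fat liver, and the comparison is described over all 4799 genes that the probe annotation names. All mice were C57BL/6 and 12 to 16 weeks old. Control mice ate chow for 2 weeks, high-fat mice ate the high-fat diet for 2 weeks, and the fasted mice of the other 18 arrays ate chow for 2 weeks and were then fasted for 16 hours. Neither the sex of the mice, the fat content of the diet nor the feeding state of the control and high-fat mice when tissue was taken is stated in the labels. Each array measured amplified total RNA of 1 mouse against that of another, so that every value is a log2 ratio of high-fat over control, where 1 is a doubling and -1 a halving. No level of a gene in a single liver could be read from such ratios. The labelled tissue could not be checked against hepatocyte levels for the same reason; the ratios of the 4 hepatocyte markers measured had a median of -0.01, from -0.47 for Ass1 to 0.37 for Apoa1.

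The liver takes up fatty acids that arrive with chylomicron remnants or as free acids in plasma, and either oxidises them, stores them as triglyceride or sends them out in very low density lipoprotein. Fatty acids and their derivatives bind nuclear receptors such as PPARalpha, which raises genes of oxidation, while the receptors PXR and CAR govern many cytochrome P450 and glutathione transferase genes. A short high-fat feeding in mice is used to study the liver before obesity is fully developed.

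The ratios were turned to high-fat over control on both arrays of a swap and averaged, and each mouse pair was counted as 1 replicate (n = 5 throughout). The direction of the deposited ratios is likely and not certain. It was read as the second-named liver over the first-named one, from the dyes listed on the first array of each swap, and with the opposite reading each gene called higher below would be lower. The test was limma's moderated test, with p adjusted by Benjamini-Hochberg over 11457 features, which were the named genes and 6658 spots without a gene name. The SE beside a mean comes from this fit, which takes the spread from all 14 mouse pairs, those with fasted mice included. It is thus not the SE of the 5 direct pairs alone. Over the named genes the mean ratio had a median of -0.01 and an SD of 0.14, and the median gene had an SD of 0.19 over the 5 pairs, so most genes differed between the diets by less than the mouse pairs differed from each other. The spread of the arrays ranged from an SD of 0.23 to 0.65.

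Between the diets, 16 of 11457 features passed the adjusted threshold of 0.05, which is 0.14% of those tested. Among the named genes 2 rose in high-fat livers (0.0417% of 4799) and 4 fell (0.0834%). The genes that rose were Apoa4 and Fabp2, which encode the lipid carriers apolipoprotein A-IV and intestinal fatty acid-binding protein. The genes that fell were Cyp3a41a, a cytochrome P450 of the steroid- and drug-oxidising 3A subfamily, Hs6st3, a heparan sulfate 6-O-sulfotransferase, Madcam1, the mucosal vascular addressin to which gut-homing lymphocytes bind, and Car14, a membrane-bound carbonic anhydrase. All 6 had the same sign in 5 of 5 pairs.

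Counted by sign alone, 165 named genes were higher in 5 of 5 pairs (3.44% of 4799) and 222 lower (4.63%). On all 10 arrays 7 were higher (0.146%) and 32 lower (0.667%). The 7 were Apoa4, Fabp2, Pltp, Ifit1, H1f2, Slc20a1 and Ucp3, of which the last 3 are named because of this count. Unadjusted p was under 0.05 for 68 named genes that were higher (1.42%) and 137 that were lower (2.85%). These shares are the background against which the counts of the lists below are to be read.

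**Figure D1:**
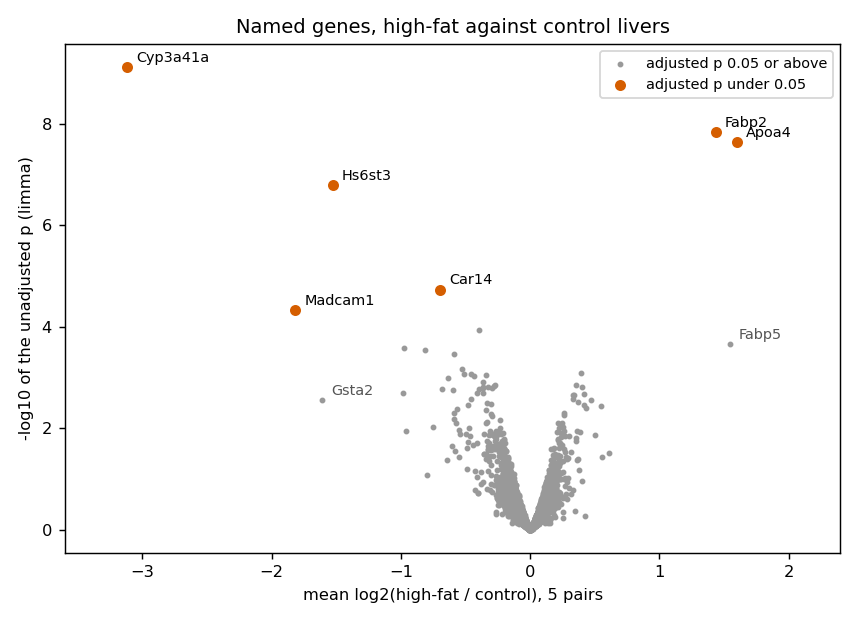
Each point is 1 of the 4799 named genes, placed by its mean log2 ratio of high-fat over control over 5 mouse pairs (horizontal axis) and by the -log10 of its unadjusted limma p (vertical axis). The 6 orange points passed an adjusted p of 0.05, from Cyp3a41a at -3.12 to Apoa4 at 1.60; Fabp5 and Gsta2, labelled in grey, had large means and did not pass.

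The promoters of the 3 genes with the largest test values are shown because the later results return to them, and because Cyp3a41a has a nearly identical copy that a probe may not tell apart. Each sequence is the 250 bases before the start of the gene, from RefSeq on GRCm38.p6, 5′ to 3′ on the strand of the gene. Capitals mark matches to the letters CAAAGTNCA, on either strand, a pattern of the kind bound by HNF4 and related nuclear receptors. In the 2 Cyp3a41 promoters a further capital marks the base at which they differ.
Apoa4, chr9:46240594-46240843, plus strand: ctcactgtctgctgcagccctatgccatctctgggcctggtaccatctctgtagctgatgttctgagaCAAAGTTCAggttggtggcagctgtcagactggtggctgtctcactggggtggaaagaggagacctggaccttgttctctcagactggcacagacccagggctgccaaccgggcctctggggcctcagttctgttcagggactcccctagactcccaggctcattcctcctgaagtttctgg
Fabp2, chr3:122894822-122895071, plus strand: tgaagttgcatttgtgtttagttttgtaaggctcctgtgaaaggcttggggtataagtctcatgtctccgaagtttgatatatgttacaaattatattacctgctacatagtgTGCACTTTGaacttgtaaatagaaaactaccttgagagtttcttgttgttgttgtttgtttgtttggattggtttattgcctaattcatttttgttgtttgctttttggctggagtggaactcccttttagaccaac
Cyp3a41a, chr5:145720137-145720386, minus strand: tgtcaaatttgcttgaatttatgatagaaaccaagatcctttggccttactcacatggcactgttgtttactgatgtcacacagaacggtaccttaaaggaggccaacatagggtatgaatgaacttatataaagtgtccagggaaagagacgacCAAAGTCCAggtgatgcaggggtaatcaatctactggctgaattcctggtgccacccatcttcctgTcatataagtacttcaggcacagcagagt
Cyp3a41b, chr5:145584731-145584980, minus strand: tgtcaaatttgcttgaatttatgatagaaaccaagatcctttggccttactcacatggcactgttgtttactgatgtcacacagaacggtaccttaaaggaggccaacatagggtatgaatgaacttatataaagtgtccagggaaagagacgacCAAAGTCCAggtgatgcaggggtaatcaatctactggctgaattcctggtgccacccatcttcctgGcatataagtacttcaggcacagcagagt
The windows of Cyp3a41a and Cyp3a41b matched at 249 of 250 bases. The pattern CAAAGTNCA was chosen after the sequences had been seen and occurs in 392 of 32851 promoter windows of this length, 1.19%. It lay 182 to 174 bases before the start of Apoa4 on the plus strand, 137 to 129 bases before that of Fabp2 on the minus strand, and 95 to 87 bases before that of Cyp3a41a on the plus strand. AGTTCA, a half-site of nuclear receptors, occurred in all 3 windows and in 11.8% of all windows. In Apoa4 it overlapped the longer match and in Fabp2 it overlapped it in part, whereas in Cyp3a41a the matches lay apart. The other half-site AGGTCA, found in 14.0% of all windows, was in none of the 3. The windows of Car14, Hs6st3 and Madcam1 held none of these letters. These matches describe the letters and no binding was measured.

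Apoa4 encodes an apolipoprotein of chylomicrons and high density lipoprotein, made mostly by the small intestine and also by the mouse liver. Its ratio was 1.63 for control 1 with high-fat 6, 1.22 for control 2 with high-fat 9, 1.90 for control 3 with high-fat 10, 1.87 for control 4 with high-fat 8 and 1.39 for control 5 with high-fat 7. Every high-fat liver was thus above its control, and the highest pair lay less than 1 log2 unit above the lowest. The mean was 1.60 ± 0.30 (SD, n = 5; SE 0.15), a 3.04-fold difference (adjusted p = 3.71e-05), and all 10 arrays showed it. The arrays of control 2 with high-fat 9 were least alike, at 2.07 and 0.36 once turned.

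Fabp2 binds long-chain fatty acids in the cytosol and is best known from enterocytes. In the same order of pairs its ratios were 1.61, 1.71, 1.89, 0.97 and 1.00. The pairs with controls 4 and 5 were lower than the other 3, and none was near 0. On average Fabp2 was 2.71-fold higher (1.44 ± 0.42 on the log2 scale, SD, n = 5; SE 0.13; adjusted p = 2.74e-05), again on all 10 arrays.

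Both are also genes of the intestinal epithelium, so the other measured markers of small intestine were read beside them. Vil1, the villin of the brush border, was at 0.09 ± 0.14 (adjusted p = 1.00) and the intestinal transcription factor Cdx1 at 0.01 ± 0.23 (adjusted p = 1.00). Of 8 small intestine markers 4 were measured, and 2 of these, Apoa4 and Fabp2 themselves, passed the threshold. The pancreatic marker Prss2 was at -0.01. Levels of these markers could not be read, and the part of other tissue in the result was not tested.

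Cyp3a41a had the largest mean of all named genes. This P450 is known from mouse liver as a female-predominant enzyme under growth hormone control. The ratio was -2.46 for control 1 with high-fat 6, -3.04 for control 2 with high-fat 9, -4.09 for control 3 with high-fat 10, -3.39 for control 4 with high-fat 8 and -2.61 for control 5 with high-fat 7. Even the smallest of these is more than a 5-fold difference, and both arrays of every swap showed it. The mean of -3.12 ± 0.66 (SD, n = 5; SE 0.24) is 8.69-fold lower in high-fat livers (adjusted p = 2.88e-06). Its 2 spots gave -3.12 and -3.12, and either may also read Cyp3a41b or another close Cyp3a transcript.

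The list of genes known for sex bias or growth hormone control gave no call besides Cyp3a41a. It did not hold Cyp2a4, at -0.59 ± 0.14, which is described below with the P450 genes. Cyp2b9, another female-predominant P450, was at -0.49 ± 0.54 and not lower in every pair, and the male-predominant Cyp7b1 was at -0.14 ± 1.01. The somatotropin-dependent Igfals, which carries IGF1 in plasma, was at -0.32 ± 0.17, and Igf1 itself at -0.01. Of 15 measured genes in this list 1 passed the threshold, Cyp3a41a, and the median was -0.09. Because the sex of the mice is not stated, the Y-linked Uty and Eif2s3y were read as well, though chosen after their values were seen. Over the 5 pairs Uty ranged from -0.25 to 0.20 and Eif2s3y from -0.21 to 0.01.

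Hs6st3 adds sulfate to the 6 position of glucosamine in heparan sulfate, the chain through which many ligands, lipoproteins among them, are held at the cell surface. Its ratios were -1.44, -1.08, -2.35, -1.90 and -0.88 in the order of pairs given for Apoa4. Controls 3 and 4 gave the lowest ratios and control 5 the highest, with all 10 arrays below 0. Hs6st3 was 2.88-fold lower on average (-1.53 ± 0.60, SD, n = 5; SE 0.17; adjusted p = 2.28e-04). The related sulfotransferases Hs6st1, at 0.02 ± 0.07, and Hs6st2, at 0.12 ± 0.10, were named after their values were seen, and neither passed the threshold.

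Madcam1 ratios were -1.94, -2.36, -0.64, -1.29 and -2.86 in the same order, so this gene varied more between pairs than the others that passed. Its mean was -1.82 ± 0.87 (SD, n = 5; SE 0.33), 3.52-fold lower, with an adjusted p of 0.036. The call was lost, at adjusted p from 0.0955 to 0.308, when the pair of control 1, 2, 4 or 5 was left out, and the mean then lay between -1.95 and -1.56. Another adhesion molecule of endothelium, Vcam1, was at 0.02 ± 0.20. The 5 endothelial markers measured had a median of -0.003, with Pecam1 at -0.12 and Cdh5 at 0.02.

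Car14 faces the outside of the cell and interconverts carbon dioxide and bicarbonate. In the order of pairs it was at -0.93, -0.24, -0.93, -0.88 and -0.51, so that the pair of control 2 stood nearest to 0, and 9 of 10 arrays were below 0. The mean of -0.70 ± 0.31 (SD, n = 5; SE 0.11) is 1.62-fold lower (adjusted p = 0.0176). This call too depended on single pairs, since leaving out the pair of control 1, 3 or 4 gave an adjusted p of 0.102, 0.146 and 0.139. With the spread taken from the 5 direct pairs alone the adjusted p of Car14 was 0.0613. Car3, the abundant cytosolic carbonic anhydrase of liver, fat and muscle, was at -0.64 ± 0.40 and did not pass (adjusted p = 1.00), although 5 of 5 pairs were below 0.

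**Figure D2:**
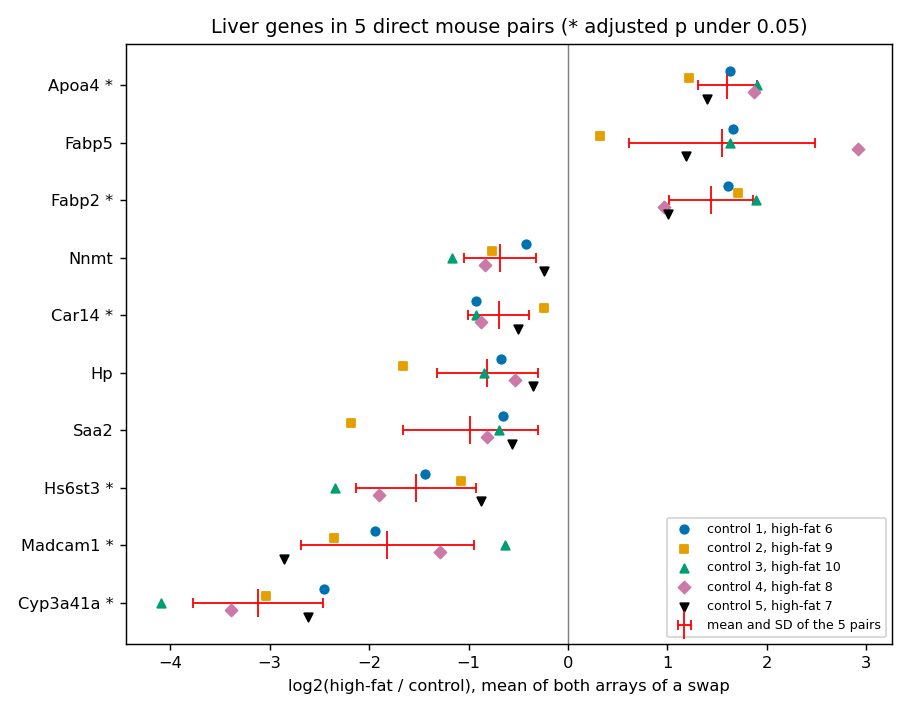
Each row is a gene and each symbol the log2 ratio of high-fat over control in 1 of 5 mouse pairs (mean of the 2 arrays of a swap); the red bar gives the mean and SD of the pairs. Genes with an asterisk passed an adjusted p of 0.05; Fabp5, from 0.32 to 2.91, and Saa2, with a single pair at -2.18, vary most among those that did not.

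The unturned ratios of both arrays of a swap were set side by side. For Apoa4, Fabp2, Cyp3a41a, Hs6st3 and Madcam1 the first and second arrays had opposite signs in 5 of 5 swaps, and for Car14 in 4 of 5. These genes were called from the turned mean of both arrays, so their signs here are a description and no check of the dyes. Across all named genes the 2 unturned arrays of a swap, which measure the same pair of mice, had a Pearson r of -0.10, 0.33, -0.16, 0.28 and -0.23 in the order of pairs given above. Differences between mice turn sign with the dyes and give a negative r, so in the pairs of controls 2 and 4 the arrays shared more that did not turn with the dyes than what did. Once turned, 127 of 4799 named genes, 2.65%, had the same sign on both arrays in each of the 5 swaps, a share no higher than independent signs would give.

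**Figure D3:**
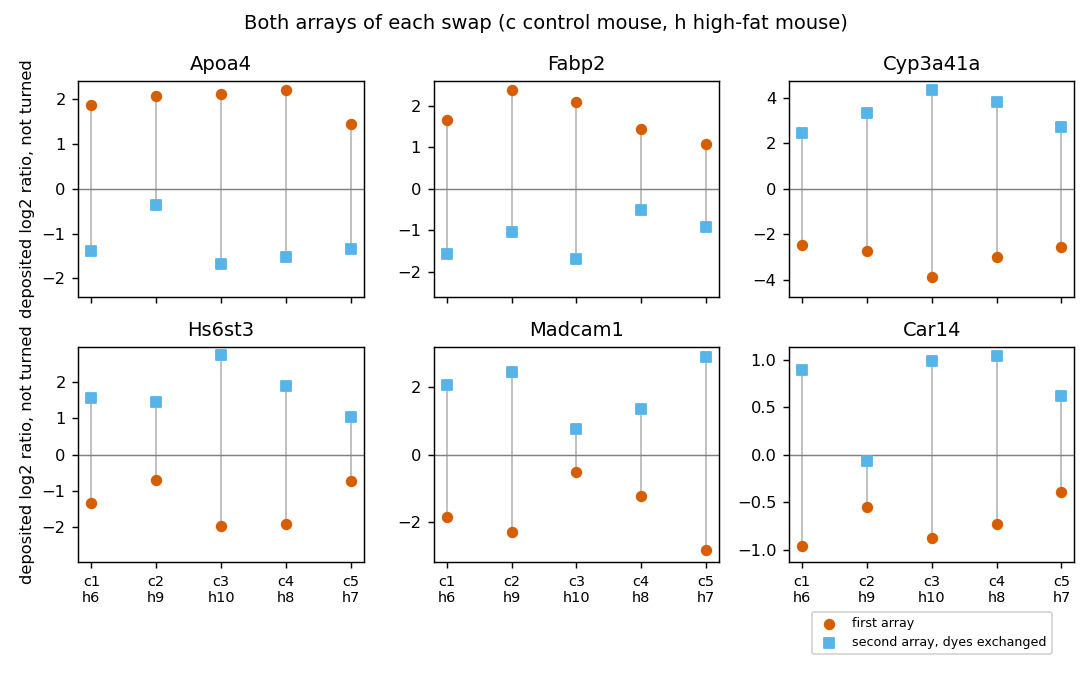
Deposited log2 ratios of the 6 genes that passed, before turning, on the first (orange) and second (blue) array of each of 5 swaps; a grey line joins the arrays of a swap. The signs are opposite in every swap except for Car14 in the pair of control 2 and high-fat 9.

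Some large means that did not pass came with a wide spread between pairs, though not all. Nnmt, described below, was at -0.68 ± 0.36 (SE 0.18), beside -0.70 ± 0.31 (SE 0.11) for Car14, which passed. Fabp5, the epidermal fatty acid-binding protein, had ratios of 1.66, 0.32, 1.63, 2.91 and 1.19 in the order of pairs. Its mean of 1.54 ± 0.94 (SD, n = 5) was close to that of Apoa4, but the pairs ranged so widely that the adjusted p was 0.127; with pair quality weights it was 0.0371. Of the other fatty acid-binding proteins and transporters, Fabp1, the main one of liver, was at 0.21, Slc27a2, an acyl-CoA synthetase that imports fatty acids, at 0.26 ± 0.18, and Slc27a5, which activates bile acids, at -0.17. Of these 8 genes 1 passed, Fabp2, and 3 had an unadjusted p under 0.05, all higher.

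Among apolipoproteins and proteins of lipoprotein handling, 1 of 11 measured genes passed, Apoa4, and at an unadjusted p under 0.05 there were 4 with a higher ratio and 1 with a lower, Lcat, which esterifies plasma cholesterol (-0.23 ± 0.18, adjusted p = 1.00). Apoa1, the main protein of high density lipoprotein, was at 0.37 ± 0.23 with 5 of 5 pairs above 0 (adjusted p = 0.477). Pltp, which transfers phospholipid between lipoproteins, was at 0.55 ± 0.40, above 0 on all 10 arrays (adjusted p = 0.507). Abca1, which loads lipid onto apolipoprotein A-I, was at 0.23 ± 0.15. Apoe, a ligand for remnant uptake, was at -0.11, and Mttp, which loads lipid onto apolipoprotein B, at -0.10. The median of the list was 0.06.

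Genes of fatty acid oxidation gave no call. The 7 measured mitochondrial genes had a median of -0.01, from -0.21 for the carnitine transferase Cpt2 to 0.08 for the dehydrogenase Acadl, and 0 of 7 had an unadjusted p under 0.05. The median of these genes ranged from -0.40 in the pair of control 4 to 0.26 in the pair of control 1. Such a range between pairs is far wider than the mean shift of the list. The 9 peroxisomal and microsomal genes had a median of -0.03 with 0 calls. Cyp4a14, the omega-hydroxylase that serves as a marker of PPARalpha in mice, had ratios of 0.23, -0.24, -1.61, -1.20 and -0.93.

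The 9 other PPARalpha targets had a median of 0.06, with 0 calls. Acot1, an acyl-CoA thioesterase, was at 0.21, -0.05, -1.15, -1.48 and -0.43 in the order of pairs, near 0 in the first 2 and lower in the rest, as was Cyp4a14. Fgf21, a hormone released by the fasted liver, was at 0.37 ± 0.41, above 0 in 5 of 5 pairs (adjusted p = 1.00). Angptl4, an inhibitor of lipoprotein lipase, was at -0.36 ± 0.34. Of 12 genes of lipid uptake and storage 0 passed and the median was -0.04. The fatty acid translocase Cd36 was at -0.48 ± 0.49, and Pparg, the receptor of fat storage, at -0.21 ± 0.13 with 5 of 5 pairs below 0 (both adjusted p = 1.00).

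Lipid synthesis also gave 0 calls. For making fatty acids and triglyceride 10 genes were measured, with a median of -0.004, and for cholesterol 7, with a median of 0.04. Fads2, the delta-6 desaturase, was at 0.47 ± 0.17 with 5 of 5 pairs above 0 (adjusted p = 0.447). Scd1, the delta-9 desaturase, had ratios of 0.69, 0.35, -0.09, 0.01 and 0.23. Both desaturases were above 0 on average, and Scd1 by less than its SD of 0.31. Among 11 genes of bile acid synthesis and transport, 0 passed, and Slc10a1, the sodium-dependent importer of bile acids, was at 0.43 ± 0.34 with 5 of 5 pairs above 0 (adjusted p = 0.529).

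Of 9 measured cytochrome P450 genes of drug metabolism 1 passed, Cyp3a41a, and 4 had an unadjusted p under 0.05, all lower. The median of the list was -0.18, and the list median lay below 0 in each of the 5 pairs, between -0.29 and -0.14. Cyp2a4, a testosterone hydroxylase, was at -0.53, -0.51, -0.44, -0.78 and -0.67, which makes its pairs more alike than those of any gene that passed (SD 0.14; adjusted p = 0.687). Fitted on the 5 direct pairs alone Cyp2a4 passed, with Apoa4, Fabp2, Cyp3a41a, Hs6st3 and Madcam1. Cyp2f2, known for bioactivating naphthalene, was at -0.48 ± 0.30 (adjusted p = 0.496). Cyp2e1, the ethanol-inducible form, had a mean of 0.22.

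Among 17 genes of conjugation and detoxification 0 passed and 5 had an unadjusted p under 0.05, all lower. Gstp1, a glutathione transferase, was at -0.63 ± 0.45 (adjusted p = 0.315), and Gstt2 at -0.51 ± 0.36 (adjusted p = 0.283). Both were below 0 on all 10 arrays. The largest mean in the list, that of the glutathione transferase Gsta2, hid large differences between mice. Its ratio was 0.39 for control 1 with high-fat 6, -0.83 for control 2 with high-fat 9, -3.36 for control 3 with high-fat 10, -2.90 for control 4 with high-fat 8 and -1.36 for control 5 with high-fat 7. The arrays of each swap had the same sign once turned, and the mean of -1.61 ± 1.53 did not pass (adjusted p = 0.447).

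Ephx1, the microsomal epoxide hydrolase, was likewise above 0 only in the pair of control 1, with ratios of 0.36, -1.37, -1.52, -1.53 and -0.81 (adjusted p = 0.14). Pkm, a pyruvate kinase of muscle and other tissues than hepatocytes, had 0.30, -0.23, -2.19, -1.50 and -1.16 (adjusted p = 0.899). In Gsta2, Pkm, Cyp4a14 and Acot1 the pairs of controls 1 and 2 had the highest ratios and those of controls 3 and 4 the lowest. These genes were chosen for a large spread or after their values were seen, and whether the control or the high-fat mouse of a pair sets its value cannot be read from the direct arrays. Saa4, a constitutive serum amyloid, ranged from -1.86 to 0.62, Phlda1 from -1.44 to 0.74 and Myom2, a protein of the muscle M band, from -1.60 to 0.22.

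Acute phase proteins had the lowest median of all lists with at least 4 measured genes, -0.25 over 10 genes, with 0 calls. Haptoglobin (Hp), which binds free hemoglobin, had ratios of -0.68, -1.66, -0.84, -0.54 and -0.35, and the serum amyloid Saa2 had -0.65, -2.18, -0.69, -0.81 and -0.56. In both the pair of control 2 was the lowest, all 10 arrays were below 0, and the mean, -0.81 ± 0.51 for Hp and -0.98 ± 0.68 for Saa2, did not pass (adjusted p = 0.146 and 0.378). Both passed, at adjusted p of 0.0199 for Hp and 0.0448 for Saa2, in a fit by generalised least squares that also used the arrays with fasted mice. Nnmt, which methylates nicotinamide, was at -0.68 ± 0.36 and below 0 on all 10 arrays (adjusted p = 0.351). The list was not lower throughout, since its median in the pair of control 3 was 0.02, and Crp was at 0.03 on average.

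Among plasma carriers and hormone precursors, Agt, the precursor of angiotensin, was at -0.46 ± 0.17 (adjusted p = 0.283) and the fetuin Fetub at -0.44 ± 0.18 (adjusted p = 0.301). Both were below 0 in 5 of 5 pairs. The 9 genes of this list had a median of -0.12, and 0 passed. Of 14 genes of complement and coagulation 0 passed, and Cfi, which inactivates C3b, was at -0.34 ± 0.25. Of 14 genes of the urea cycle and amino acid catabolism 0 passed, with a median of -0.13. Ass1, an enzyme of the urea cycle, was at -0.47 ± 0.20 and Gnmt, which uses up methyl groups of S-adenosylmethionine, at -0.32 ± 0.24.

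Glucose metabolism gave 0 calls among 8 genes of gluconeogenesis and 12 of glycolysis and glycogen. Pcx, which makes oxaloacetate from pyruvate, had close values in the 5 pairs, 0.24, 0.28, 0.21, 0.12 and 0.20 (adjusted p = 0.899). Ldha was at 0.33 ± 0.18 with 5 of 5 pairs above 0 (adjusted p = 0.44). The medians of these lists were 0.09 and -0.06. Of 16 genes of insulin and IGF signalling 0 passed and 0 had an unadjusted p under 0.05.

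In the circadian list 0 of 12 genes passed. Arntl, the core activator of the clock, was at -0.04, -0.71, -0.95, -0.82 and -0.20 (adjusted p = 0.928). Dbp, another gene of this list, was at 0.10, 0.59, 0.70, 0.52 and -0.14 (adjusted p = 0.977). The pairs of controls 2, 3 and 4 had the largest ratios of both genes, in opposite directions. The time of day at which tissue was taken is not stated in the labels, and its part in these values was not tested.

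Ribosomal proteins had a median of -0.14 over 35 genes, of which 0 passed and 8 had an unadjusted p under 0.05, all lower. The list median was 0.13 in the pair of control 1 and -0.35 in that of control 2. Oxidative phosphorylation, with 17 genes, had a median of -0.11 and 0 calls. In both lists the pair of control 1 was the only 1 of 5 with a median above 0. The 24 proteasome genes had a median of -0.003 and the 15 cell cycle genes of -0.01, with 0 calls in either.

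Interferon-responsive genes had the highest median of the pathway lists, 0.13 over 10 genes, with 0 calls. Ifit1, which binds foreign RNA, was at 0.38, 0.22, 0.48, 0.30 and 0.42, above 0 on all 10 arrays (adjusted p = 1.00). The ubiquitin-like Isg15 was at 0.38 ± 0.42 and Ifit3 at 0.28 ± 0.28, both below 0 in the pair of control 4. In the list of 17 inflammatory genes 1 passed, Madcam1, and 1 other had an unadjusted p under 0.05, the interleukin 1 receptor Il1r1 at 0.29 ± 0.29 (adjusted p = 1.00). The endotoxin receptor Tlr4 was at 0.18, and the cytokines Tnf, Ccl2 and Il1b were at 0.08, 0.09 and 0.01. Of 18 matrix genes 1 passed, Hs6st3. The beta-galactoside-binding lectin Lgals1 was at -0.60 ± 0.43, below 0 on all 10 arrays (adjusted p = 0.355), and Col5a3 at -0.28 ± 0.08.

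The carbonic anhydrase list held 7 measured genes with a median of -0.16, of which 1 passed, Car14. In 3 further lists 0 genes passed. The 12 antioxidant genes and NRF2 targets had a median of -0.08, with the mitochondrial peroxiredoxin Prdx3 at -0.20, below 0 in 5 of 5 pairs, and the heme oxygenase Hmox1 at -0.16. Chaperones and genes of the unfolded protein response, 11 in number, had a median of -0.03, and their transcription factor Atf4 was at -0.20. The 5 genes of iron and metal handling had a median of -0.02, with the iron sensor Tfr2 at -0.17 and below 0 in 5 of 5 pairs.

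**Figure D4:**
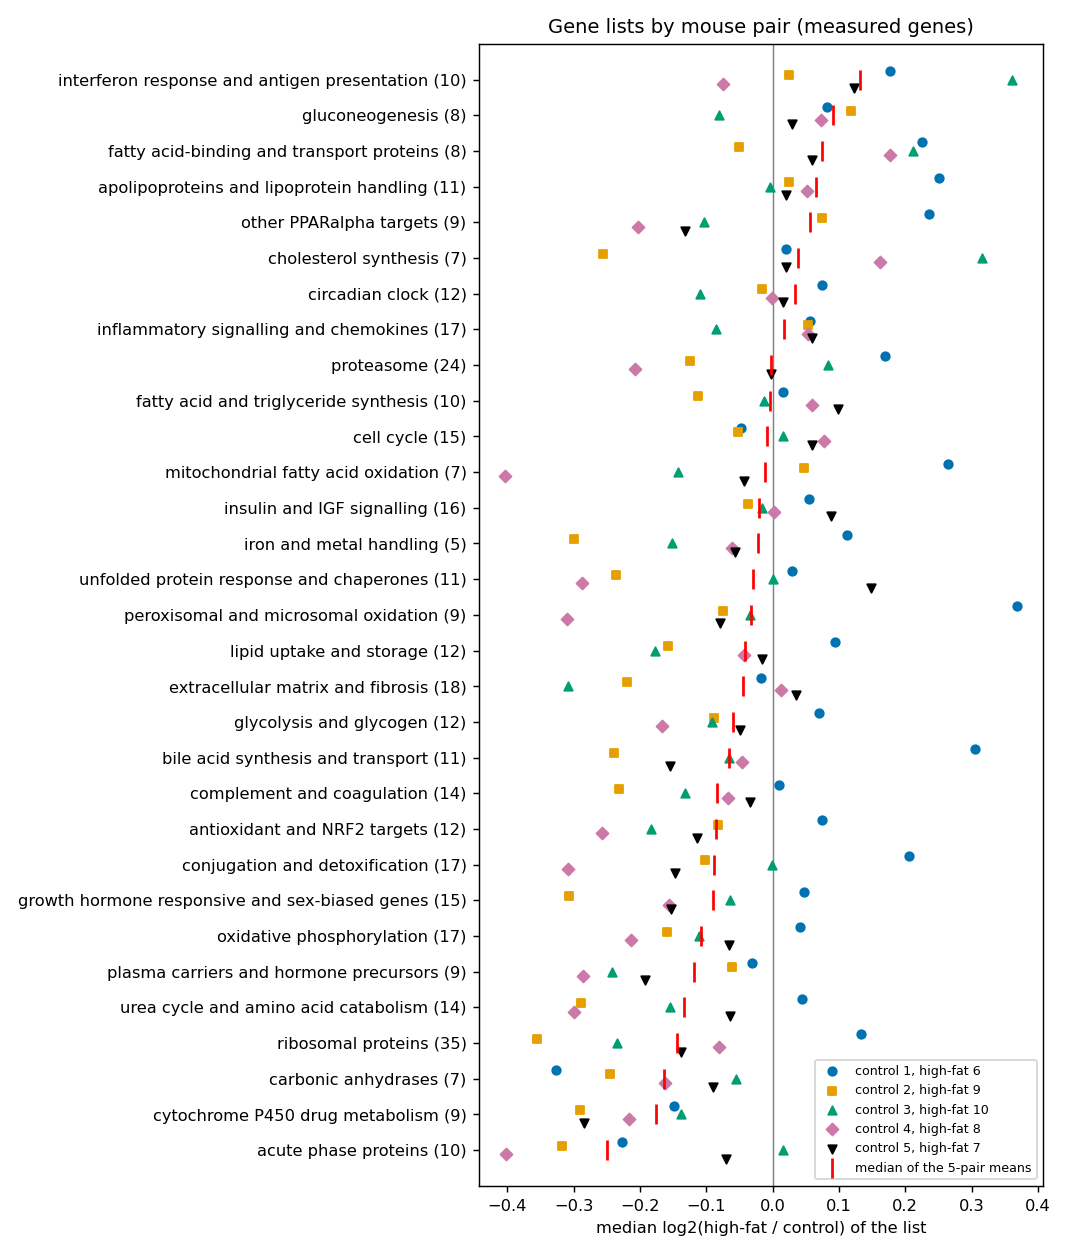
Each row is a pathway list of at least 4 measured genes, with their number, and each symbol the median log2 ratio of high-fat over control of the list in 1 of 5 mouse pairs; red bars mark the median of the 5-pair means. Medians of these lists lie between -0.40 and 0.37 in single pairs, and mitochondrial fatty acid oxidation spans -0.40 to 0.26.

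Of 43 lists with a measured gene, 32 had a median below 0 and 11 above, beside a median of -0.01 over all named genes. The sign of some lists differed between the arrays of a swap. On first arrays alone acute phase proteins were at 0.05 and ribosomal proteins at 0.02, and on second arrays alone at -0.37 and -0.35. The P450 list stayed below 0 on both, at -0.26 and -0.34. The median of all features was 0.03 on first arrays and -0.07 on second arrays. Markers of other cells of the liver gave 0 calls. The 7 Kupffer cell markers had a median of -0.16, from -0.31 for C1qc to -0.003 for Folr2, and a median below 0 in 5 of 5 pairs. In bulk tissue fewer cells of a type cannot be told apart from less RNA per cell. The erythroid marker Hba-a1 was at -0.57 ± 0.58, from -1.27 to 0.16. The 3 erythroid markers together had a median of -0.06, the 3 of cholangiocytes -0.06 and the 2 of stellate cells and fibroblasts 0.15, with Reln at 0.23 and Dcn at 0.08. Markers of neutrophils had a median of 0.001 over 6 genes and those of T and B lymphocytes -0.08 over 4. Adipocyte markers were represented by Car3 and Lep, the latter at -0.02. Muscle markers were represented by 4 genes with a median of -0.02. The highest was Csrp3 at 0.34 ± 0.20 (adjusted p = 0.38) and the lowest Mb at -0.23 ± 0.45.

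Spots without a gene name held 10 of the 16 features that passed, all 10 lower in high-fat livers and 0 higher. The lowest were a pair of neighbouring spots, numbers 2489 and 2490 of the table, at -2.90 ± 0.24 and -2.90 ± 0.25 (adjusted p = 1.01e-07 and 1.66e-07). Their SD over the pairs was smaller than that of Cyp3a41a, 0.66, for a mean nearly as low. Spots 2493 and 2494 were at -1.99 ± 0.36 and -1.97 ± 0.38, and spot 1555 at -0.99 ± 0.19, close to its neighbour 1556. The remaining 4, spots 2497, 2498, 2499 and 3919, lay between -1.14 and -0.95. Most of the 10 spots thus have numbers from 2489 to 2499. Named genes mostly have 2 spots on this array, and whether such neighbours belong to 1 gene was not tested.

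All of these mice but control 1 were also measured on arrays with fasted mice, which gives high-fat over control a second way. The ratio of a fasted mouse over a control was combined with that of the same fasted mouse over a high-fat mouse, for 4 such chains. Control 1 and high-fat 6 are in no chain, while the direct means include them. The other mice are those of the direct pairs, in other combinations, and the values are given without a test. For Cyp3a41a the chains gave -3.21 ± 0.27 (SD, n = 4) beside -3.12 direct, for Fabp2 1.27 ± 0.27 beside 1.44, and for Car14 -0.71 ± 0.35 beside -0.70. All 4 chains had the direct sign for each of these 3 genes. Apoa4 was at 2.42 ± 0.26 through the chains, from 2.16 to 2.72, all above its highest direct ratio of 1.90. Hs6st3 was at -0.67 ± 0.22, between -0.96 and -0.46, with its mean nearer 0 than each direct ratio. Madcam1 was at -1.28 ± 0.93 with 3 of 4 chains below 0.

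Outside those calls, Scd1 and Nsdhl had the other sign in the chains, though the direct mean of each was smaller than its SD. How many of all named genes did so is not given here. Scd1, at 0.24 ± 0.31 in the direct pairs, was at -0.94 ± 0.64 in the chains, with 0 of 4 of the direct sign. Nsdhl, an enzyme of late cholesterol synthesis, was at 0.15 ± 0.42 in the direct pairs and at -1.12 ± 0.30 in the chains. Both genes were far lower in fasted than in control livers, with Scd1 at -1.57 ± 0.64 and Nsdhl at -2.06 ± 0.43 (SD, n = 4). The ratio of high-fat over control for these genes thus depends on which arrays it is read from, and the difference was not tested.

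Fasted over control values are given beside the direct ones for the genes that passed, on 4 mouse pairs that share their controls with the high-fat pairs. Apoa4 was at 4.99 ± 0.31 after the fast, against 1.60 with the high-fat diet. Fabp2 was at 0.72 ± 0.29, Car14 at -0.52 ± 0.32, and Madcam1 at -0.90 ± 0.31. Cyp3a41a was at -0.16 ± 0.53 and Hs6st3 at 0.05 ± 0.25 after the fast, each with values on both sides of 0. Fabp5, at 1.54 with the diet, was at -2.29 ± 0.51 after the fast. More genes passed the same threshold after the fast, on 4 pairs rather than 5, with 184 of 4799 named genes higher and 257 lower. With the diet these counts were 2 and 4.

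**Figure D5:**
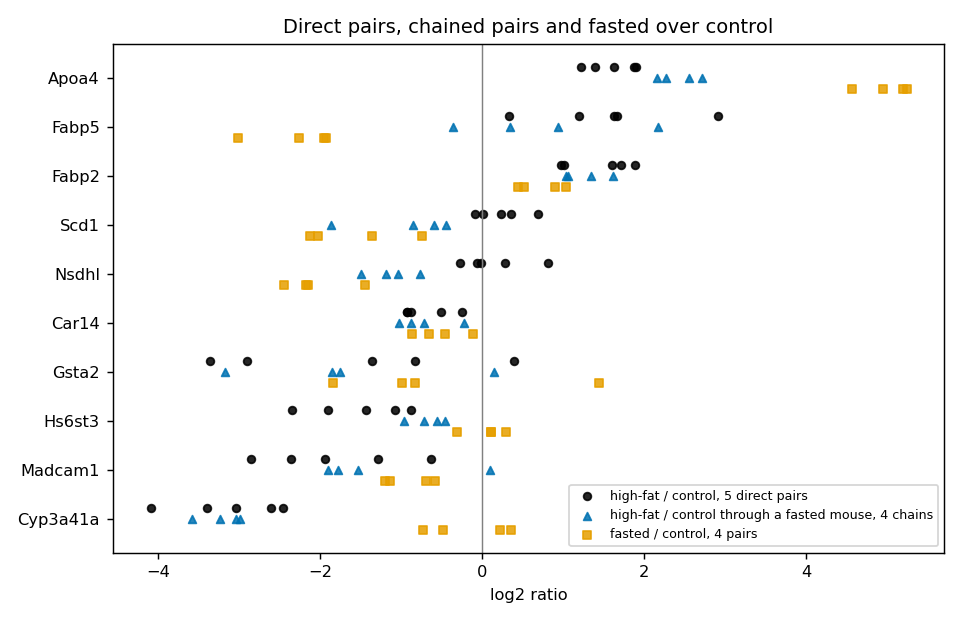
Log2 ratios of 10 genes: high-fat over control in the 5 direct pairs (black circles), high-fat over control through a shared fasted mouse in 4 chains (blue triangles) and fasted over control in 4 pairs (orange squares). Cyp3a41a lies below -2 in all direct pairs and chains and near 0 after the fast, while Nsdhl lies near 0 in the direct pairs and below 0 in every chain.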

How the data were processed

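The authors deposited a table of log2 ratios, 16416 spots on 28 arrays; that the logarithm is to base 2 is an assumption. Per the submitters' processing notes limma was used, with no version; how background, scale and weak spots were handled is not stated. Without intensities no signal can be set against background, and the number of arrays limits the precision. The channel labels of the second arrays, read literally, leave the dyes in place; the exchanged reading follows the design text. Each direct pair holds another control and another high-fat mouse.

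The platform annotation gave 9758 spots 1 gene symbol and 6658 none, and all 4799 symbols matched RefSeq by Entrez number. Ratios were averaged over a gene's spots (2 for 4797 genes, 160 for Gapdh). Probes of close families (Cyp3a, Cyp4a, Gsta, Saa, Acot) can bind related transcripts. Tests used R 4.3.3 and limma 3.58.1. Means of 3 kinds of mouse pair were fitted over all 14 pairs, which share 1 spread (11 residual degrees of freedom). The estimate is the mean of the 5 direct pairs. Most mice are in 2 of the 14 pairs, and this fit takes the pairs as independent. The script was tested on simulated data, in which pairs were independent and neither shared mice nor dye bias was present. This was a check of the code and not of the calls. For 5 pairs an exact two-sided sign-change test cannot go below 0.0625. Genes named are those past the threshold, the 10 largest means of 1 sign in all pairs, up to 3 of smallest p per list, and the 8 of largest spread whose swaps had like signs; others are list members given for their role or are said to be chosen by their values. Of 44 lists, ketone body synthesis had 0 measured genes. Members, lists and rules were chosen with earlier results of these data known. Alternatives were the direct pairs alone, generalised least squares, centring, equal spread, pair weights, single arrays of a swap, unexchanged dyes, the spot nearer 0, named genes alone, robust moderation and leaving out each pair.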

Additional observations from a re-analysis of the deposited data

Results flagged for a closer look

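Among the 124 genes chosen for naming, 6 had a single mouse pair far from the other 4, by the gap of that pair relative to the whole range. By chance about 1 in 20 genes would be so marked, and the count lies near that share. Some of the genes, Cyp7b1 among them, had been chosen for a large spread. The serum amyloid Saa2 had -2.18 in the pair of control 2 and high-fat 9, and -0.81 to -0.56 in the others. In the same pair Crem, a cAMP-responsive transcription factor, stood high at 0.71, and the Kupffer cell gene Cd5l stood low at -0.53. Angptl4 was at 0.24 in the pair of control 1 and high-fat 6, against -0.63 to -0.40 elsewhere. The kinase Akt2 was at 0.49 in that pair, with the others between 0.04 and 0.09. Cyp7b1, an oxysterol hydroxylase of bile acid synthesis, was at 1.58 in the pair of control 3 and high-fat 10 and between -1.09 and -0.36 in the rest.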

How the results depend on the processing

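Apoa4, Fabp2, Cyp3a41a and Hs6st3 passed the threshold in 15 of 16 alternatives, Car14 and Madcam1 in 9 of 16. The exception for the first 4 was taking the dyes as not exchanged, which by its construction sets the arrays of a swap against each other. Cyp3a41a was then at 0.20, Hs6st3 at 0.20, Madcam1 at 0.082, Saa2 at 0.12, Hp at 0.25 and Nnmt at 0.20, all of the opposite sign, and 10 named genes were higher and 38 lower. Against 2 higher and 4 lower named genes, arrays brought to the same spread gave 19 and 16, pair quality weights 4 and 12, and first arrays alone 55 and 46. Second arrays alone gave 17 higher, generalised least squares over all 14 pairs 13 lower, and the spot nearer 0 gave 2 lower. Among genes described above that did not pass, generalised least squares called Agt, Col5a3, Csrp3, Ephx1, Gstt2, Hp, Lgals1 and Saa2, and pair weights called Ephx1, Fabp5, Gsta2, Hp, Pkm and Saa2. Equal spread called Apoa1, Csrp3, Ephx1, Fabp5, Fads2, Gstp1, Hp, Ldha, Pltp, Saa2, Slc10a1 and Slc27a2. Leaving out each pair gave 2 higher throughout and 2 to 3 lower, with 2 lower without control 4 and high-fat 8. The cause was not tested. Single arrays keep the dye bias, and no intensity shows which genes were near background. The direct ratios are paired by hybridisation, so no further block was fitted. Of 640 recomputed list medians 68 moved by more than the SD of the pair medians, 65 of them with single arrays or unexchanged dyes.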
